A study of Mus musculus with 3 samples.

Results

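Cyp2a4, Cyp2a5, Cyp2a12, Cyp2a22, Cyp2b9, Cyp2b10, Cyp2b13 and Nr1i3 are mouse genes of 1 detoxification circuit: 7 cytochrome P450 enzymes and the nuclear receptor CAR, which Nr1i3 encodes. They are 8 of the 55357 genes in the deposited count tables, and they were chosen by name, with their hepatocyte levels in these libraries already known. Their levels below are therefore descriptions, and no test is attached to them. The tables come from single-cell RNA sequencing of livers of male wild-type C57BL/6 mice, aged 8 weeks when the groups were formed. CON mice were healthy controls. HFD mice ate a diet with 60% of its calories from fat for 4 months. CCL4 mice ate chow for 3 months and then received intraperitoneal carbon tetrachloride, 10% and 0.1 mL per injection, 2 times a week for 4 weeks. Each condition is 1 library made from the pooled livers of 2 mice, with hepatocytes and non-parenchymal cells mixed in equal parts after collagenase perfusion. With 1 library per condition, a difference between conditions cannot be told apart from a difference between libraries.

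CAR is a nuclear receptor of hepatocytes that pairs with the retinoid X receptor RXRα and raises transcription of enzymes that oxidise, conjugate and export drugs, steroids and bile pigments. Cyp2b10 is its best known target in mice and is strongly induced by phenobarbital. Cytochrome P450 enzymes are membrane-bound haem proteins that insert oxygen into lipophilic molecules with electrons passed on by the reductase Por. Cyp2a5, the mouse counterpart of human CYP2A6, hydroxylates coumarin, and Cyp2a4 hydroxylates testosterone. Cyp2a12 acts on testosterone and bile acids. Cyp2b9 and Cyp2b13 are known in adult mouse liver as enzymes more abundant in females than in males. Many P450 enzymes are confined to the hepatocytes around the central vein, where carbon tetrachloride is activated and does most damage, and hepatocytes around the portal vein carry other enzymes.

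The 7 P450 genes lie in 1139.76 kb of chromosome 7, from the first base of Cyp2b10 to the last base of Cyp2a12, in the order Cyp2b10, Cyp2b13, Cyp2b9, Cyp2a4, Cyp2a5, Cyp2a22 and Cyp2a12 (GRCm38, GENCODE M21). Cyp2b10 spans chr7:25897620-25926624, Cyp2b13 chr7:26061497-26096197, Cyp2b9 chr7:26173411-26210661, Cyp2a4 chr7:26307169-26315088 and Cyp2a5 chr7:26835305-26843548, all on the plus strand. Cyp2a22 spans chr7:26931631-26939384 on the minus strand and Cyp2a12 chr7:27029081-27037375 on the plus strand. Nr1i3 lies alone at chr1:171213970-171220701 on the plus strand and overlaps Tomm40l, which runs on the minus strand. On chromosome 7 the gene models of Cyp2b13, Cyp2a4 and Cyp2a22 overlap Rnf170-ps on the same strand, Gm42375 on the opposite strand and the pseudogene Cyp2a21-ps on the opposite strand, respectively.

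The promoters of 6 of these genes form pairs that are alike, and in each pair 1 gene carried most of the hepatocyte UMIs (unique molecular identifiers, each counting 1 captured RNA molecule). The stretches below are therefore shown side by side, with the bases that differ inside a pair in capitals. Each holds 150 bases upstream of a gene's start on its own strand, read from RefSeq promoters on GRCm38.p6. They run from 188 to 39 bases before the start, except for 2 stretches shifted to align. Those run from 187 to 38 bases before the start for Cyp2a4 and from 177 to 28 for Cyp2a22. In the first pair, Cyp2a5 at chr7:26835151-26835300 and Cyp2a4 at chr7:26307005-26307154 matched at 147 of 150 bases (98%).
Cyp2a5: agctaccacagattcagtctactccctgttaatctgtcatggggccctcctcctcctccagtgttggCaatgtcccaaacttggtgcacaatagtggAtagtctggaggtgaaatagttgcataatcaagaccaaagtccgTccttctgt
Cyp2a4: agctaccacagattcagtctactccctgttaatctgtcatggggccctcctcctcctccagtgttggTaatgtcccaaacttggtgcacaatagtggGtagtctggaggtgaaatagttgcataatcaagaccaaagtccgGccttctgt

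In the second pair, Cyp2b9 at chr7:26173221-26173370 and Cyp2b13 at chr7:26061307-26061456 matched at 149 of 150 bases (99.3%).
Cyp2b9: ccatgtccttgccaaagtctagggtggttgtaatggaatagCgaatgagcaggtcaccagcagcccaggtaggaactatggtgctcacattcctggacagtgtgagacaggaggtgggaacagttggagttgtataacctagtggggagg
Cyp2b13: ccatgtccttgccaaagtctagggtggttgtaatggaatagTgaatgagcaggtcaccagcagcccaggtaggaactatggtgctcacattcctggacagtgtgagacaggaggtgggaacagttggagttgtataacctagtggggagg

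In the last pair, Cyp2a12 at chr7:27028902-27029051 and Cyp2a22 at chr7:26939414-26939563 (minus strand) matched at 140 of 150 bases (93.3%) with their windows shifted to align, and at 82.8% of aligned positions over the 250 bases before the start.
Cyp2a12: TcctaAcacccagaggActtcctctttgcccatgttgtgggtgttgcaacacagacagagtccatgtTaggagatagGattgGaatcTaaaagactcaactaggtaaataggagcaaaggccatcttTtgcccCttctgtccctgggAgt
Cyp2a22: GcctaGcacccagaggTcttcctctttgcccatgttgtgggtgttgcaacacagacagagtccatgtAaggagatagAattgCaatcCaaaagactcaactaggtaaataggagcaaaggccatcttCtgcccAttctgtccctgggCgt

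The promoter of Cyp2b10 matched that of Cyp2b9 at 70% of aligned positions over the 250 bases before the start. Windows of 300 bases, 250 before the start and 50 after it, were searched on both strands for 3 motifs. TATAAA, the letters of a TATA box, stood in 4 of the 8 windows and in 13.6% of 32851 promoters of the same length. The 4 were those of Cyp2a4, Cyp2a5, Cyp2a12 and Cyp2a22, where it began 28, 29, 39 and 28 bases before the start. AGGTCA, the hexamer that many nuclear receptors contact, stood in 4 of 8 windows and in 16.3% of all promoters. It lay 138 to 133 bases before the start of Cyp2b9 and of Cyp2b13, inside the stretches printed above, and after the start of Cyp2a4 and Cyp2a5 on the opposite strand. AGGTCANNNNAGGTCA, a direct repeat with a spacer of 4 bases, stood in 0 of the 8 windows and in 0.0152% of all promoters. A match describes the letters in these windows only.

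The kit counts 1 tag per molecule near the 3′ end of the transcript, so levels in CPM (a gene's UMIs divided by all UMIs of the same cells, times 1000000) are not divided by transcript length. Because the genes are so alike, the read-length uniqueness of their transcript ends was checked. Of 411 windows of 90 bases in the last 500 bases of the transcript, 43 (10.5%) of Cyp2a4 occurred in Cyp2a5 or Cyp2a21-ps, 7 (1.70%) of Cyp2a5 in Cyp2a4 and 8 (1.95%) of Cyp2a12 in Cyp2a22. Cyp2a22, Cyp2b9, Cyp2b10, Cyp2b13 and Nr1i3 had 0 shared windows there. Over whole transcripts the shared part was larger, 18.3% for Cyp2a5, 14.7% for Cyp2a4, 11.3% for Cyp2b13, 9.17% for Cyp2a12, 8.55% for Cyp2a22, 2.69% for Cyp2b9 and 0.547% for Cyp2b10. The split of UMIs between Cyp2a4 and Cyp2a5 is thus the least certain of the pairs.

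The libraries held 11245 (CON), 12984 (HFD) and 12761 (CCL4) barcodes and 49613255, 34985786 and 34061186 UMIs, and 36 to 52 barcode sequences occurred in both libraries of a pair. Hepatocytes were taken as barcodes of hepatocyte-like clusters with 3 to 30% mitochondrial UMIs and no UMI of the leukocyte gene Ptprc, which left 1220, 829 and 2299 cells with a median of 8313, 3594 and 3130 UMIs. Each library's hepatocytes sat mostly in a cluster of their own (cluster 4 for CON, 29 for HFD and 35 for CCL4, with 98.4%, 97.5% and 94.3% of the cells). The 15 hepatocyte markers were all present in them, summing to 103219, 116777 and 162302 CPM, and the marker sum of any other cell class was at most 4.04% of its level in that class. CON stood apart from HFD and CCL4. Of 20 measured acute-phase genes, which the liver makes during inflammation, 19 were lower in HFD and 19 in CCL4 than in CON, with the serum amyloid gene Saa1 at 11303 CPM in CON, 522 in HFD and 169 in CCL4. Every HFD or CCL4 value set against CON below stands beside that difference, and its part in the members' values was not tested. Free RNA from broken hepatocytes reaches every droplet, so T cell-like barcodes, which should make none of these transcripts, were counted in the same way (1751, 2137 and 1999 cells). Over 15 hepatocyte markers the median ratio of hepatocyte to T cell CPM was 3.95 in CON, 1.61 in HFD and 1.47 in CCL4, so the levels in both kinds of cell lay closer together in HFD and CCL4.

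Cyp2a5 was the member with the widest range in CPM, taken as a difference. As a ratio, Cyp2b9 spanned more, 105 against 46.6. Hepatocytes held 160 Cyp2a5 UMIs in CON, 666 in HFD and 38 in CCL4, which is 14.9 CPM (95% counting interval 12.6 to 17.3), 208 CPM (192 to 224) and 4.46 CPM (3.15 to 6.12). The HFD library was highest and the CCL4 library lowest. Among genes with a UMI in the hepatocytes of a library, Cyp2a5 ranked 5461 in CON, 701 in HFD and 8517 in CCL4. Its near twin Cyp2a4 stayed low, at 3, 19 and 13 UMIs or 0.278, 5.92 and 1.52 CPM, and the 3 CON UMIs came from a single cell. Cyp2a5 made up 98.2% of the UMIs of this pair in CON, 97.2% in HFD and 74.5% in CCL4 (60.4 to 85.7).

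Cyp2a12 was the steadiest member by ratio of CPM between libraries, without correction for free RNA. It had 1678, 427 and 1531 UMIs, or 156 CPM (148 to 163) in CON, 133 CPM (121 to 146) in HFD and 180 CPM (171 to 189) in CCL4, and ranked 895, 1083 and 778 among the genes with a UMI. It was the most abundant of the 8 in CON and CCL4, where it gave 80.4% and 56.9% of all member UMIs, and came after Cyp2a5 in HFD. Cyp2a22, whose promoter resembles that of Cyp2a12, was near the limit of detection with 12, 18 and 13 UMIs (1.11, 5.61 and 1.52 CPM). Cyp2a12 gave 99.3%, 96.0% and 99.2% of the UMIs of that pair.

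Cyp2b9 was abundant in 1 library. It had 10 UMIs in CON (0.928 CPM, 0.445 to 1.71), 19 in HFD (5.92 CPM, 3.57 to 9.25) and 831 in CCL4 (97.5 CPM, 91.0 to 104). The CCL4 level lay far above those of CON and HFD. The HFD level lay above that of CON, but from 19 and 10 UMIs. Cyp2b13, with almost the same promoter, had 0, 0 and 3 UMIs. A count of 0 allows up to 0.278 CPM in CON and 0.935 CPM in HFD, and the 3 UMIs in CCL4 equal 0.352 CPM. Cyp2b9 thus held 831 of the 834 UMIs of this pair in CCL4. Cyp2b10, the classical CAR target, was close to absent in all 3 libraries with 23, 11 and 8 UMIs, or 2.14 CPM (1.35 to 3.20), 3.43 CPM (1.71 to 6.13) and 0.938 CPM (0.405 to 1.85).

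Nr1i3, the gene of CAR itself, was detected everywhere. Its UMIs numbered 202, 234 and 253, which is 18.8 CPM (16.3 to 21.5) in CON, 72.9 CPM (63.9 to 82.9) in HFD and 29.7 CPM (26.1 to 33.6) in CCL4. The order was HFD, CCL4, CON. With the T cell profile taken off, the levels were 15.9 CPM in CON, 49.9 CPM in HFD and 16.1 CPM in CCL4. With the T cell UMIs per barcode taken off, a setting chosen after seeing the data, they were 15.3, 50.4 and 19.0 CPM. Levels were not rescaled after either subtraction. With the T cell profile taken off, the median log2 ratio of all genes against CON became −0.61 in HFD and −0.86 in CCL4. In CCL4 against CON, Nr1i3 lay 0.88 above that median, and 0.49 above the median before the subtraction. The receptor's order was shared by Cyp2a5 only at its top end, since Cyp2a5 was lowest in CCL4 and Nr1i3 lowest in CON. Summed over its members, the Cyp2a group reached 172, 352 and 187 CPM and the Cyp2b group 3.06, 9.35 and 98.8 CPM, so the 7 P450 genes together gave 175 CPM in CON, 362 CPM in HFD and 286 CPM in CCL4.

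**Figure D1:**
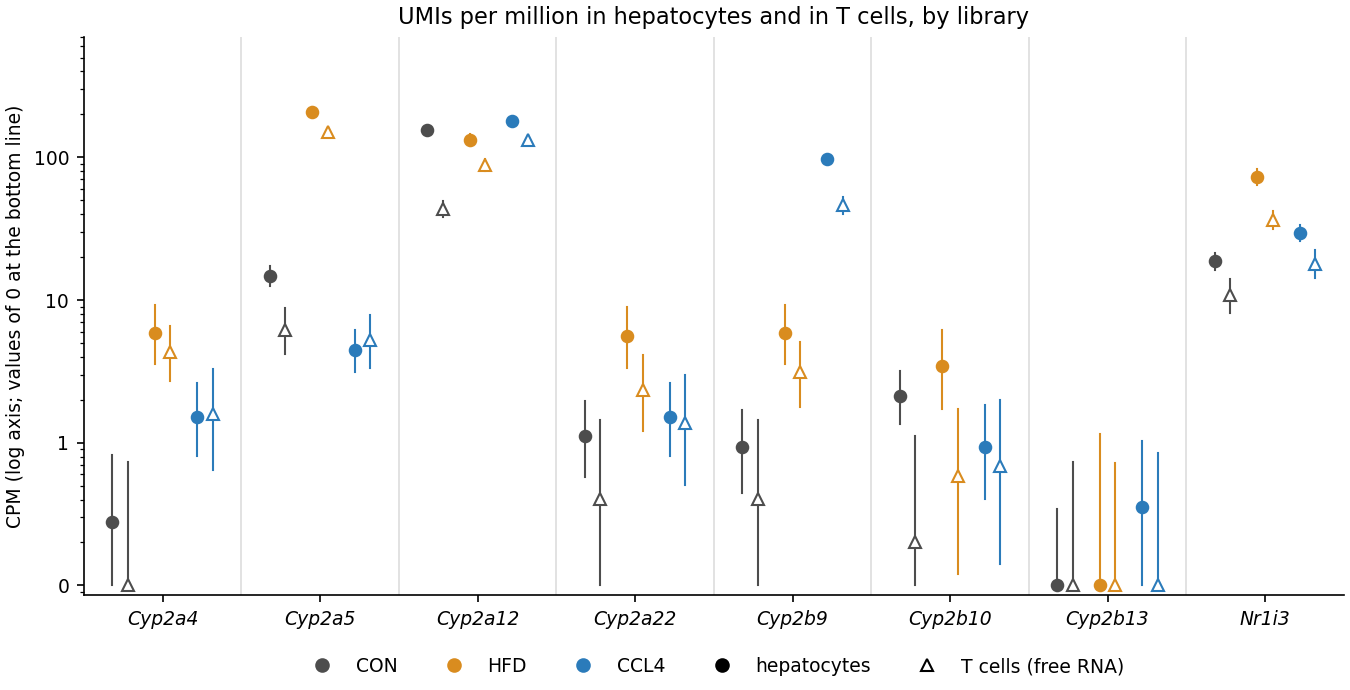
Level of each of the 8 genes in CPM (log axis, 0 drawn at the bottom) with 95% counting intervals. Filled circles are hepatocytes and open triangles T cell-like barcodes of the same library. Libraries stand side by side within each gene, CON in grey, HFD in orange and CCL4 in blue. Cyp2a12 is high in all 3 libraries, Cyp2a5 stands out in HFD at 208 CPM and Cyp2b9 in CCL4 at 97.5 CPM.

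**Figure D2:**
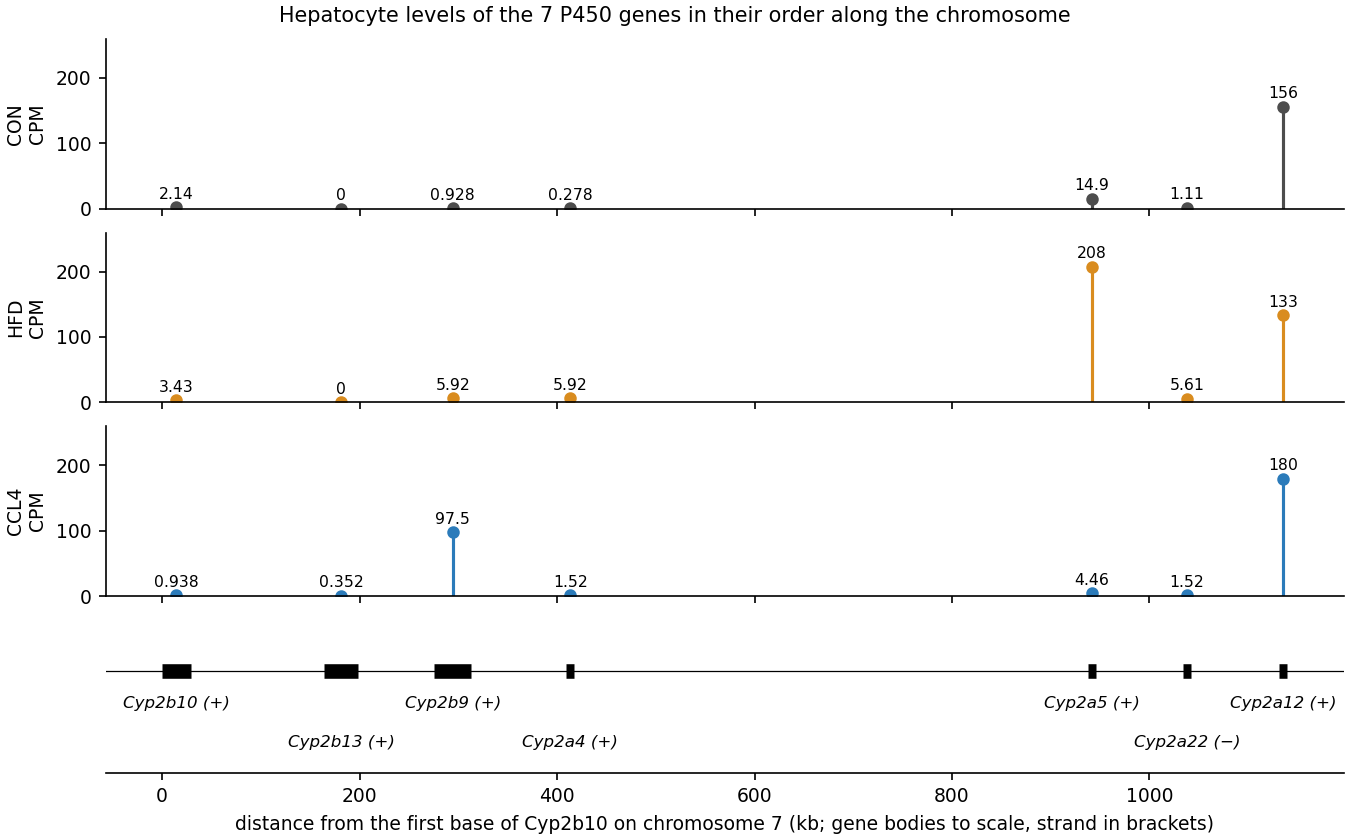
Hepatocyte levels in CPM of the 7 P450 genes, each drawn at its distance in kb from the first base of Cyp2b10 on chromosome 7, with the gene bodies to scale in the bottom strip. In each library 1 or 2 of the 7 genes rise above the axis, Cyp2a12 always, Cyp2a5 in HFD and Cyp2b9 in CCL4.

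For comparisons between libraries a gene was measured if it reached 10 CPM in either library and was called higher or lower if its CPM plus 5 differed at least 2-fold. HFD against CON asks what a fat-rich diet went with. Cyp2a5 was higher in HFD, 208 against 14.9 CPM, a ratio of 14.0 (11.7 to 16.7). Nr1i3 was higher too, 72.9 against 18.8 CPM, a ratio of 3.89 (3.21 to 4.72). Both calls came from 3 measured members, where 4.55% of 7095 measured genes were called higher and 3.95% lower (8.5% in either direction). Only 3 of those 7095 genes, Cyp2a5 included, had a log2 ratio at least as high as that of Cyp2a5. Cyp2a12, also measured, had a ratio of 0.854 (0.766 to 0.951) and was not called. Its log2 ratio of CPM plus 5 went from −0.22 to −0.86 once the T cell profile was taken off, where the median of all genes became −0.61. Below 10 CPM in both libraries, Cyp2a4 had a ratio of 21.3 (6.26 to 112) from 3 CON UMIs, Cyp2b9 of 6.38 (2.82 to 15.4) and Cyp2a22 of 5.04 (2.30 to 11.5).

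CCL4 against CON asks what repeated carbon tetrachloride went with. Cyp2b9 was higher in CCL4, 97.5 against 0.928 CPM, a ratio of 105 (56.8 to 220). Cyp2a5 was lower, 4.46 against 14.9 CPM, a ratio of 0.30 (0.205 to 0.430). These were 1 higher and 1 lower call among 4 measured members, where 4.83% of 7017 measured genes were called higher and 5.52% lower (10.3% in either direction). The lower call of Cyp2a5 rested on 38 UMIs, of which 1 cell held 10 and the 107 CCL4 cells of cluster 29 held 21. It was lost when the mitochondrial minimum was raised to 5% (log2 ratio of CPM plus 5 of −0.73) or set to 0% (−0.87), against −1.07 as called. Nr1i3 had a ratio of 1.58 (1.31 to 1.91) and was not called. Nor was Cyp2a12, with a ratio of 1.15 (1.07 to 1.24). Its log2 ratio of CPM plus 5 went from 0.20 to −0.81 once the T cell profile was taken off, where the median of all genes became −0.86. Cyp2a4, below 10 CPM in both, had a ratio of 5.48 (1.5 to 29.95) from 3 CON UMIs.

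The injured and the fat-fed liver also differed from each other, in a comparison that does not use CON. Cyp2a5 was at 4.46 CPM in CCL4 and 208 CPM in HFD, so that HFD was 46.6 times higher (33.6 to 66.4), and Nr1i3 was at 29.7 and 72.9 CPM, with HFD 2.46 times higher (2.05 to 2.95). Cyp2b9 went the other way, 97.5 against 5.92 CPM, with CCL4 16.5 times higher (10.5 to 27.5). The 1 higher and 2 lower calls came from 4 measured members, where 1.78% of 7063 measured genes were called higher and 3.2% lower in CCL4 (4.98% in either direction). Only 2 genes, Cyp2b9 included, had a log2 ratio at least as high as that of Cyp2b9, and only 5, Cyp2a5 included, one at least as low as that of Cyp2a5. The lower call of Nr1i3 was lost when the mitochondrial minimum was set to 0% (log2 ratio of CPM plus 5 of −0.79, against −1.17 as called). Cyp2a12 had a CCL4 to HFD ratio of 1.35 (1.21 to 1.51) and was not called. Below 10 CPM in both, the ratios were 0.257 for Cyp2a4 (0.117 to 0.550), 0.272 for Cyp2a22 (0.122 to 0.587) and 0.274 for Cyp2b10 (0.0956 to 0.747). CON was thus the lowest library for Nr1i3 and, by fewer UMIs, for Cyp2b9, and the comparisons of HFD and of CCL4 with CON share those cells.

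UMIs of these genes were also found in T cells of the same libraries. Cyp2a5 stood at 6.20 CPM in CON T cells, 150 CPM in HFD and 5.25 CPM in CCL4. The hepatocyte to T cell ratio was 2.39 in CON, 1.38 in HFD (1.25 to 1.54) and 0.849 in CCL4 (0.493 to 1.49). In CCL4 the Cyp2a5 level of all hepatocytes together could thus not be told from the T cell level. The lowest such ratio among the 15 hepatocyte markers was 1.77 in CON, 0.956 in HFD and 0.764 in CCL4. A ratio near or below 1 in HFD or CCL4 therefore cannot show that hepatocytes lack a transcript. Cyp2b9 stood at 0.40, 3.13 and 46.1 CPM in T cells. Its ratio was 2.32 in CON (0.494 to 21.8), 1.89 in HFD (0.920 to 3.93) and 2.11 in CCL4 (1.81 to 2.48). In CON and HFD the Cyp2b9 level of hepatocytes could thus not be told from the T cell level. Cyp2a12 in hepatocytes was 3.57, 1.5 and 1.35 times its T cell level, and Nr1i3 1.73, 2.00 and 1.65 times.

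Cyp2b10 had a hepatocyte to T cell ratio of 10.7 in CON (1.73 to 439), with 1 UMI in the T cells. Counting members whose ratio had an interval wholly above 1 gave 4 in CON, 5 in HFD and 3 in CCL4, where 15.4%, 14.8% and 17.3% of all genes with a UMI in either kind of cell passed the same rule. Ranges were taken over the other named cell classes, with the smallest left out, which were 13, 13 and 11. Cyp2a5 ranged from 1.22 to 8.81 CPM in CON, 43.9 to 150 CPM in HFD and 0 to 5.25 CPM in CCL4. Cyp2b9 ranged from 28.4 to 90.5 CPM in the CCL4 classes and was at most 0.743 CPM in those of CON. Cyp2a12, the most abundant member in CON and CCL4, ranged from 8.63 to 60.3 CPM and from 85.2 to 172 CPM over the classes of those libraries. Barcodes of unnamed clusters, outside these ranges, held Cyp2a5 at 8.70 CPM in CON, 210 CPM in HFD and 2.36 CPM in CCL4. Nr1i3 stood at 29.2, 549 and 141 CPM in those barcodes, against 18.8, 72.9 and 29.7 CPM in the gated hepatocytes. What these unnamed barcodes are was not tested.

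The T cells gave ratios between libraries that did not use the hepatocyte gate. The 15 hepatocyte markers summed to 26954 CPM in T cells of CON, 73824 CPM in those of HFD and 121882 CPM in those of CCL4. The T cell ratios below are not scaled to that load of free hepatocyte RNA, so they do not give the change per unit of it. Cyp2a5 was 24.2 times higher in HFD than in CON T cells (16.9 to 35.8), and Cyp2b9 was 115 times higher in CCL4 than in CON (31.5 to 957). The CCL4 to CON ratio of Cyp2a5 was 0.846 (0.471 to 1.5) there, an interval that includes 1. Cyp2a12, nearly level between hepatocytes before free RNA was taken off, was higher in HFD and CCL4 T cells than in those of CON, as the marker sum was. The ratios were 2.03 (1.72 to 2.40) and 3.04 (2.60 to 3.57). The higher levels of Cyp2a5 in HFD and of Cyp2b9 in CCL4 thus also stood in the free RNA, and the Cyp2a12 ratios in T cells differed from those in hepatocytes.

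**Figure D3:**
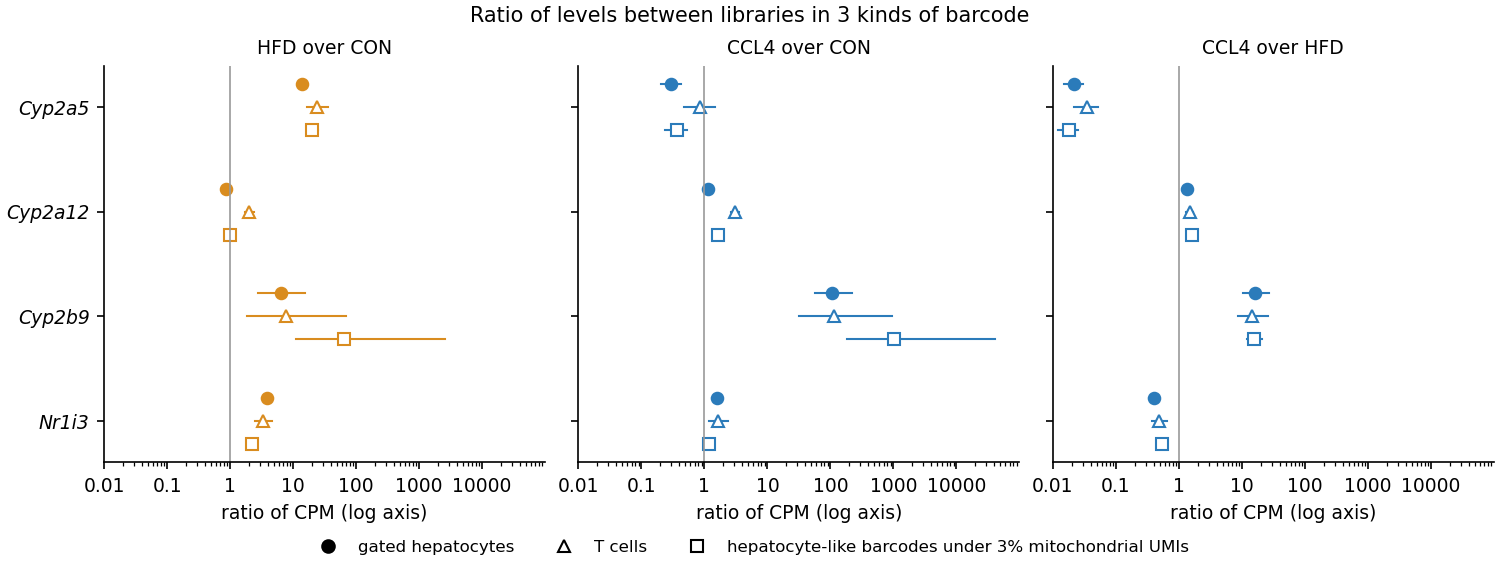
Ratio of CPM between libraries (log axis) for Cyp2a5, Cyp2a12, Cyp2b9 and Nr1i3 in hepatocytes (filled circles), T cell-like barcodes (open triangles) and hepatocyte-like barcodes under 3% mitochondrial UMIs (open squares), with 95% counting intervals. All 3 kinds of barcode place Cyp2a5 above 1 in HFD over CON and Cyp2b9 above 1 in CCL4 over CON, while the Cyp2a5 ratio of CCL4 over CON includes 1 in T cells. Ratios in T cells are not scaled to their load of free hepatocyte RNA, which was higher in HFD and CCL4 than in CON.

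Hepatocytes of each library were ordered by a zone score, the contrast of known pericentral and periportal genes without any member, and split into 3 zones of equal numbers of cells, periportal, middle and pericentral. The zone names are relative to the library. Cells of the pericentral zone had medians of 7071 (CON), 12758 (HFD) and 1436 CPM (CCL4) of the pericentral score genes. For the periportal score genes these were 4167, 3072 and 14841 CPM, against 9077 CPM in the periportal zone of CON. The pericentral zone of CCL4 thus held cells unlike those of the same name in CON and HFD. Genes outside the score were looked at first. Of the pericentral genes, 9 of 9 measured in CON, 9 of 10 in HFD and 2 of 9 in CCL4 were at least 1.5-fold higher in the pericentral zone, and of 12 periportal genes 5, 9 and 3 were lower, so the score separated zones least in CCL4. Members were called by the same 1.5-fold rule, which gave 2 higher and 1 lower in the pericentral zone of CON, 3 higher and 1 lower in HFD, and 2 higher and 0 lower in CCL4. Of all measured genes 11.1% were called higher and 5.65% lower in CON (16.7% in either direction), 13.2% and 12.3% in HFD (25.5%), and 2.86% and 1.95% in CCL4 (4.82%).

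Cyp2a5 was pericentral in every library. From the periportal over the middle to the pericentral zone it went from 0.869 over 2.19 to 50.2 CPM in CON and from 30.6 over 87.9 to 533 CPM in HFD. In CCL4 it was at 0.666, 0 and 13.3 CPM. The pericentral to periportal ratio was 57.7 in CON (22.1 to 215), 17.4 in HFD (12.5 to 24.8) and 19.9 in CCL4 (5.14 to 171, with 2 UMIs in the periportal zone). The pericentral zone held 93.1%, 81.8% and 94.7% of the Cyp2a5 UMIs but 27.6%, 31.9% and 31.8% of all UMIs. There the gene stood at 8.08, 3.55 and 2.53 times (1.46 to 4.47 in CCL4) the T cell level. In CCL4 the pericentral zone, unlike the hepatocytes as a whole, was thus above that level. The periportal zone stood at 0.140, 0.204 and 0.127 times the T cell level, and the middle zone at 0.353, 0.586 and 0 times. The T cell level in CPM thus lay above any free RNA level of the hepatocytes in those zones.

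Nr1i3 followed the same direction with a shallower slope, 6.95, 15.3 and 40.7 CPM in CON, 29.8, 58.2 and 139 CPM in HFD and 17.3, 23.1 and 50.2 CPM in CCL4. Its pericentral to periportal ratios were 5.86, 4.65 and 2.90. Cyp2a12 ran the other way. It fell towards the central vein, from 193 over 178 to 74.4 CPM in CON and from 161 over 149 to 84.0 CPM in HFD, ratios of 0.386 and 0.521. In CCL4 it was at 180, 188 and 170 CPM, a ratio of 0.948 (0.836 to 1.08), and was not called. Cyp2b9, abundant in CCL4 alone, was at 83.6, 95.3 and 115 CPM there, a ratio of 1.38 (1.16 to 1.63) that did not reach the fold for a call. Cyp2a22 was called pericentral in HFD from 14 against 4 UMIs, a ratio of 4.24 (1.33 to 17.7).

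**Figure D4:**
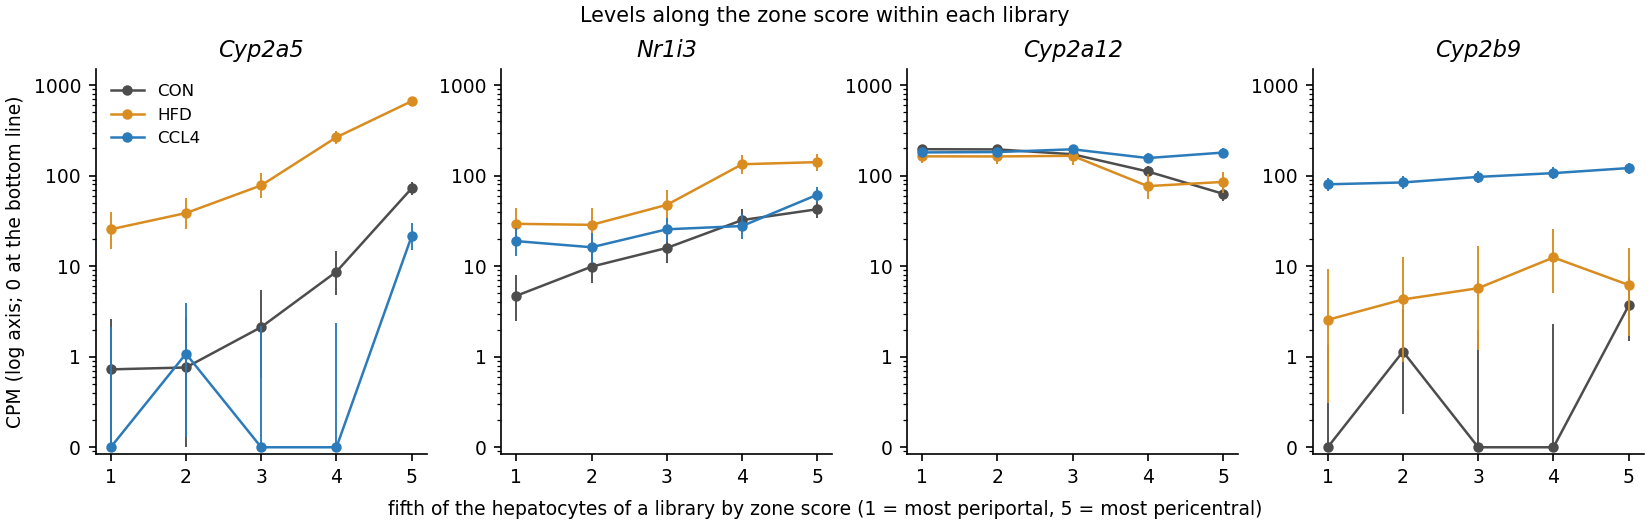
CPM of Cyp2a5, Nr1i3, Cyp2a12 and Cyp2b9 in 5 equal groups of hepatocytes ordered from periportal to pericentral within each library, with 95% counting intervals. Cyp2a5 climbs to 666 CPM in the outermost pericentral group of HFD, Cyp2a12 falls towards the central vein in CON and HFD, and Cyp2b9 in CCL4 lies between 80.4 and 121 CPM throughout.

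Levels of the zone genes themselves differed between the libraries, and a different mix of zones cannot be told apart from different expression of these genes. Over all measured genes, 8.5% were called in HFD against CON and 10.3% in CCL4 against CON. Of the pericentral genes of the score, 8 of 11 measured were called higher in HFD than in CON and 1 higher and 5 lower of 9 in CCL4 than in CON. Of the 15 periportal genes, 3 were called higher and 1 lower in HFD, and 10 higher and 0 lower in CCL4. Outside the score, 2 of 9 pericentral genes were higher and 0 lower in HFD and 4 higher and 0 lower in CCL4, and of 12 periportal genes 0 were higher and 1 lower in HFD and 4 higher and 3 lower in CCL4. With 1 pair of cuts common to all cells, the pericentral group held 651 cells in CON, 490 in HFD and 309 in CCL4, and the periportal group 28, 51 and 1370. The Cyp2a5 comparisons were therefore repeated inside the pericentral group. HFD was 11.001 times CON there (9.21 to 13.2), against 14.0 times over all hepatocytes, and Nr1i3 was 3.41 times higher (2.74 to 4.24). The CCL4 to CON ratio of Cyp2a5 was 0.969 (0.655 to 1.40), from 36 against 155 UMIs, against 0.265 (0.179 to 0.383) with the pericentral zone cut within each library.

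With the common cuts, Cyp2a5 was thus near the same level in the pericentral cells of CON and CCL4, 32.9 and 31.9 CPM, in groups that held 651 and 309 cells. Nr1i3 in CCL4 was 2.32 times CON there (1.76 to 3.03) and 1.23 times (0.957 to 1.59) with cuts within each library. Cyp2b9 stayed higher in CCL4 in each way of cutting, 90.03 times (42.6 to 228) and 48.8 times (23.4 to 122). Cyp2a12 was 1.64 times (1.38 to 1.93) and 2.29 times (1.95 to 2.70) higher in the pericentral cells of CCL4 than of CON, without correction for free RNA. In T cells, where the summed hepatocyte markers were also higher in CCL4 than in CON, the same ratio was 3.04 (2.60 to 3.57). With cuts within each library, the pericentral cells stood at 1.29 times the T cell level in CCL4 and 1.70 times in CON. In the 107 CCL4 cells of cluster 29, the cluster of most HFD hepatocytes, Cyp2a5 reached 45.0 CPM (27.9 to 68.8), and in those of cluster 35 it was 2.12 CPM (1.24 to 3.40).

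In single cells, at least 1 UMI of any of the 7 P450 genes was found in 63.9% of CON, 64.5% of HFD and 59.7% of CCL4 hepatocytes. Cyp2a5 was seen in 7.70%, 37.3% and 0.913% of hepatocytes and in 1.77%, 30.3% and 1.15% of T cells, with median depths of 8313, 3594 and 3130 against 2380, 2212 and 2019 UMIs. With every cell thinned to 1000 UMIs the shares were 1.71%, 16.3% and 0.320% against 0.707%, 14.3% and 0.522% in T cells. The CCL4 share was thus no higher than that of T cells. In HFD hepatocytes the unthinned share lay below the 53.0% that the same UMIs would give if spread evenly by depth, whereas in HFD T cells 30.3% was seen and 29.9% would be. The other libraries were alike, with 7.70% seen against 12.0% if even in CON hepatocytes and 0.913% against 1.64% in CCL4. In their T cells the shares were 1.77% against 1.75% and 1.15% against 1.14%. Cyp2a5 was thus gathered in part of the hepatocytes of each library, and in T cells it was spread close to evenly.

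Cyp2b9 was seen in 28.0% of CCL4 hepatocytes and 9.35% of T cells, and thinned in 9.36% and 4.33%. An even spread would give 29.2% of those hepatocytes. Cyp2a12 was seen in 58.8%, 36.9% and 45.2% of hepatocytes, but thinned in 12.8%, 12.0% and 16.0% against 4.21%, 8.51% and 12.4% of T cells. The raw share was highest in CON, whose cells were deepest, and the thinned share in CCL4, where the CPM was highest too. Nr1i3 was seen in 14.4%, 22.9% and 9.92% of hepatocytes, and thinned in 2.15%, 7.32% and 3.18% against 1.07%, 3.66% and 1.75% of T cells. Thinned shares of Nr1i3 kept the order of its CPM, highest in HFD and lowest in CON.

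Other genes of the CAR circuit were taken from lists of known biology. Of 31 other CAR targets, 22 were measured in each comparison, where 8.5%, 10.3% and 4.98% of all measured genes were called. In HFD against CON 13 of them were called higher and 1 lower, with a median log2 ratio of 1.18 against 0.11 over all measured genes. Thrsp, a regulator of lipid synthesis, was at 553 against 107 CPM, and the glutathione transferase Gstm1 at 2130 against 451 CPM. Gadd45b, a stress-responsive gene, was the 1 lower gene at 5.30 against 65.1 CPM.

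In CCL4 against CON 5 of the 22 were called higher and 10 lower, with a median of −0.69 against 0.05 over all genes. The lowest ratios belonged to P450 enzymes: Cyp3a11 at 109 against 1043 CPM, Cyp1a2 at 21.1 against 186 CPM and Cyp2c29 at 108 against 758 CPM. Against HFD, 1 was called higher and 12 lower in CCL4, with a median of −1.25 against −0.05 over all genes, and Cyp1a2 (866 CPM in HFD), Cyp3a11 (2019 CPM) and Cyp2c54 (27.6 against 373 CPM) led. Cyp2a5 and Nr1i3 were likewise higher in HFD than in CCL4, and Cyp2b9 was lower. The pericentral genes of the zone score had medians of −1.33 in CCL4 against CON and −2.23 in CCL4 against HFD. For pericentral genes outside the score these were 0.77 and −0.26. Here too, a shift of CAR targets apart from pericentral genes was not tested.

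All 24 partners and regulators of CAR were measured, against backgrounds of 8.5%, 10.3% and 4.98% of all measured genes called in the 3 comparisons. In HFD against CON 3 were called higher and 3 lower (median log2 0.05), in CCL4 against CON 2 and 4 (median 0.19), and in CCL4 against HFD 0 and 0 (median 0.07). Ppargc1a, a coactivator of fasting metabolism, was called higher in HFD (32.1 CPM) and in CCL4 (49.5 CPM) than in CON (10.7 CPM). Cebpb, an acute-phase transcription factor, was lower in both (438 and 498 against 1379 CPM), and the fatty acid receptor Ppara was higher in HFD (72.9 against 29.6 CPM). Ahr, the receptor for dioxin-like compounds, was lower in HFD and in CCL4 than in CON (31.8 and 26.7 against 71.9 CPM).

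Genes that supply electrons and haem to P450 enzymes were counted against the same backgrounds. Of 14 measured in HFD against CON 2 were called higher and 1 lower, of 13 in CCL4 against CON 0 and 1, and of 14 in CCL4 against HFD 0 and 2, with medians of 0.39, 0.01 and −0.61. The reductase Cyb5r3, which feeds cytochrome b5, was higher in HFD (632 against 242 CPM) and the haem-degrading enzyme Hmox1 lower (25.6 against 85.3 CPM). Hmox1 was also lower in CCL4 than in CON, at 38.2 CPM. Alas1, the first enzyme of haem synthesis and itself a CAR target, was at 181 CPM in CCL4 and 92.8 CPM in CON, and Por at 116 CPM in CCL4 and 214 CPM in HFD. Neither of these differences reached 2-fold.

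**Figure D5:**
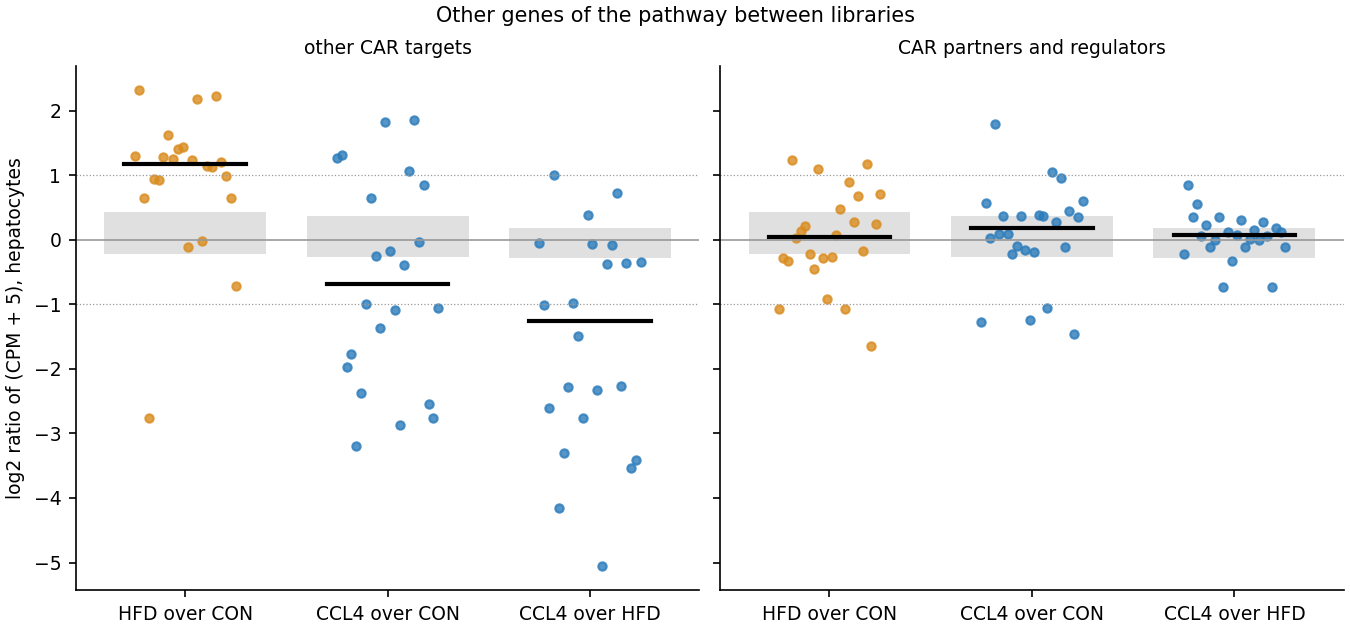
Log2 ratio of CPM plus 5 between libraries for each measured gene of the other CAR targets and of the CAR partners and regulators. Points are genes, black lines list medians, grey boxes the middle 50% of all measured genes, and dotted lines the 2-fold limits. The median of the target list lies above the box in HFD against CON (1.18) and below it in CCL4 against CON (−0.69) and in CCL4 against HFD (−1.25). The median of the partner list stays inside the box in all 3 comparisons.

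Since Cyp2b9 and Cyp2b13 are female-predominant genes and all mice were male, genes of liver sex bias were counted as well. Over all measured genes, 8.5%, 10.3% and 4.98% were called in the 3 comparisons. Of 22 female-biased genes, members left out, 7 were measured in HFD against CON, with 4 called higher and 1 lower. Of 8 measured in CCL4 against CON, 2 were higher and 2 lower, and of 8 in CCL4 against HFD, 2 and 3. The steroid hydroxylase gene Cyp17a1 (44.9 against 5.76 CPM) and the peroxisomal transporter gene Abcd2 (38.7 against 6.68 CPM) were the 2 that were higher in CCL4 than in CON, as Cyp2b9 was, while Cyp2c40 was lower (0.586 against 10.5 CPM). In HFD the higher genes included Cyp4a10 (2038 against 510 CPM) and Cyp4a14 (5371 against 1460 CPM), fatty acid hydroxylases known also as targets of Ppara.

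Of the male-biased genes 5 of 20 were called higher and 1 lower in HFD against CON. The counts were 3 and 11 of 19 in CCL4 against CON, and 1 and 12 of 20 in CCL4 against HFD. Their median log2 ratios were 0.18, −1.42 and −1.27, against 0.11, 0.05 and −0.05 over all measured genes. Cyp4a12a (6.57 against 173 CPM), Cyp4a12b (0.352 against 59.6 CPM) and the organic anion transporter gene Slco1a1 (10.9 against 204 CPM) were the lowest in CCL4 against CON. Of 18 measured genes of dissociation and stress, 0 were called higher and 5 lower in HFD and 1 higher and 4 lower in CCL4 than in CON. Over all measured genes, 8.5% and 10.3% were called in those comparisons. The metallothionein gene Mt2 was at 2963 CPM in CON, 60.8 in HFD and 119 in CCL4. Of 20 measured acute-phase genes, 0 were called higher and 3 lower in CCL4 than in HFD, where 1.78% and 3.2% of all measured genes were. The 3 were Saa1 (169 against 522 CPM), Saa2 (69.9 against 274 CPM) and Orm2 (19.5 against 73.9 CPM). The list median log2 ratio was 0.0004.

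The genes whose profile was most like that of a member were sought among 1475 genes over the 9 groups of 3 libraries by 3 zones, which share libraries, depth and the zone score. Pearson's r of log values describes these points only. For Cyp2a5 these were Gstm6 (r = 0.997), Cyb5b (0.981) and Mgst1 (0.980), a pair of glutathione transferase genes and a cytochrome b5 gene. For Nr1i3 they were Cyb5a (0.985), Creg1 (0.982) and Fitm2 (0.979). For Cyp2a12 they were Hsd17b13 (0.969), Cyp2f2 (0.953) and Sds (0.943), all of them periportal genes of the zone score that formed the groups, and so not independent of how the groups were made. For Cyp2b9 they were Leap2 (0.987), Tsc22d3 (0.986) and Cth (0.980), which were likewise highest in the 3 CCL4 groups, Tsc22d3 at 253 to 281 CPM against 44.7 to 103 CPM in the other 6.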

How the data were processed

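Single-cell libraries of 3 conditions, 1 library each, were made by the submitters with a 3′ UMI kit. The matrices that the authors deposited hold unnormalised UMI counts, written by cellranger 7.2.0 per the file headers. The study's methods name mm10 and the submitters' processing notes GRCm39, so coordinates and sequences were taken from GENCODE M21 and RefSeq (GRCm38). Gene positions and transcripts were matched by the Ensembl gene ID and promoters by gene symbol, and all 8 genes matched. Cell-calling settings are not given in the sources used here. Only barcodes with 500 or more UMIs, 200 or more genes and mitochondrial shares up to 30% were clustered. Doublets were not called.

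After scaling each cell to 10000 counts and a log transform, 2000 variable genes without the 8 members gave 30 principal components, 15 neighbours and 38 Leiden clusters at resolution 1.0 (scanpy 1.11.5, python-igraph 0.11.9). Clusters were named from 15 marker lists, and the exact naming rule (at least 3 markers raised 1.5-fold over the median cluster in 10% of its cells, with no other class holding more of the cluster's 10 leading genes) was set after the clusters were seen. Raw UMIs were summed over gated cells and divided by the cells' total to give CPM. Intervals are 95%, exact Poisson for levels, exact conditional for ratios and exact Clopper-Pearson for shares (scipy 1.17.1), and they cover counting error alone. The limit for a gene without UMIs was set at 3 counts. No p-value is given, since there is 1 library per condition. The pericentral and periportal zone scores used genes seen in 5% of cells.

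The members and the 11 gene lists were chosen with earlier results of these data known. Named list genes come from the 3 with the largest absolute log2 ratio of CPM plus 5 in each list and comparison. Like genes were ranked by Pearson's r of log2(CPM plus 5). The scripts were tested on simulated data. In all, 21 alternatives were tried (other gates, filters, scalings, zone cuts and removal of free RNA), of which 1 was added after the T cell levels were seen.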

Additional observations from a re-analysis of the deposited data

Results flagged for a closer look

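Hepatocyte-like barcodes under 3% mitochondrial UMIs lay outside the gate, numbered 3593, 5507 and 4654 in CON, HFD and CCL4, and entered above only the plot of ratios and the settings with no mitochondrial minimum. The values below had counting intervals wholly above the CON level of the same kind of barcode. Cyp2a5 reached 158 CPM in HFD (7.84 CPM in CON) and Nr1i3 45.2 CPM (20.4 CPM in CON). Cyp2b9 reached 68.1 CPM in CCL4 and 4.29 CPM in HFD, where CON had 1 UMI (0.0664 CPM). Cyp2a12 was at 153 CPM in CCL4 against 93.7 CPM in CON. The rarer genes were also above CON: Cyp2a4 at 5.23 CPM in HFD and 1.29 CPM in CCL4 (0.266 CPM in CON), Cyp2a22 at 2.54 CPM in HFD (0.598 CPM) and Cyp2b10 at 1.53 CPM in HFD (0.266 CPM). In the other direction, Cyp2a5 was at 2.85 CPM in CCL4 against 7.84 CPM in CON, a ratio of 0.364 (0.239 to 0.539). The median depth of these barcodes was 3188, 2228 and 2079 UMIs.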

How the results depend on the processing

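Of 99 counts of members under the alternatives, 93 stayed within 1.5 times the value above. In CCL4 against CON the number of members past 2-fold was 1 instead of 2 with 5 to 30% mitochondrial UMIs, with 0 to 30% and with a minimum of 50 CPM. In CCL4 against HFD it was 2 instead of 3 with 0 to 30% mitochondrial UMIs, a change within the 1.5 times. Between zones the number was 2 instead of 4 in HFD with 0 to 30% mitochondrial UMIs, and in CCL4 it was 1 instead of 2 with 0 to 30% and with the cells split into 2 zones instead of 3. Of the log2 ratios of single members 245 kept their value within its counting interval, 19 moved further and 0 passed from a call in one direction to the other. Taking off free RNA with the T cell profile shifted the median log2 ratio of all genes from 0.11 to −0.61 in HFD against CON and from 0.05 to −0.86 in CCL4 against CON, and under it the Cyp2a12 log2 ratio in CCL4 against CON went from 0.20 to −0.81, which is 0.05 above that median. The Nr1i3 log2 ratio in CCL4 against CON went from 0.55 to 0.01 under it, which is 0.88 above the median. Cyp2a5 in HFD against CON stayed between 2.69 and 3.93 over 11 alternatives, and Cyp2b9 in CCL4 against CON between 3.54 and 4.55. No paired analysis was possible because each condition has 1 library. Depth limits Cyp2a4, Cyp2a22, Cyp2b10 and Cyp2b13, which had 23 UMIs or fewer in the gated hepatocytes of every library.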
